A study of Mus musculus with 4 samples.

Results

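Reactive astrocyte and intermediate filament genes were examined in the injured cortex of Ndrg2KO and wild-type mice as a list of 36 named genes. Of the 36, 35 had at least 1 probe whose RefSeq accession maps to the symbol, with 51 probes in all. The same 35 passed the filter on dim probes, which asked for a spot well above background on at least 3 arrays in either channel, and were tested among 24565 features. Ugt1a1, the UDP-glucuronosyltransferase gene of the list, had no probe under this rule and has no value here. The brightest kept probe stood for its gene.

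The series held 4 arrays, each carrying RNA of 2 samples of the same replicate number: an Ndrg2KO sample in Cy3 and a wildtype sample in Cy5. Both groups were C57BL/6 at 8 weeks of age, and all had permanent MCAO, the lasting closure of the left middle cerebral artery by electrocoagulation, 24 h before the ipsilateral cortex was taken, so neither genotype had an uninjured control here. The labels give neither the design of the knockout allele nor say that samples are separate animals, so a p-value here reflects the spread among these samples alone, which could be technical. The dyes were never swapped, and a dye effect on a probe cannot be told apart from genotype.

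After injury astrocytes enlarge, build up the intermediate filaments GFAP and vimentin and re-express nestin, with synemin joining the same network; this response is driven in large part by gp130 cytokines acting through STAT3. Earlier work in mice sorted reactive astrocyte genes into pan-reactive genes and into 2 sets, A1 (seen after endotoxin) and A2 (seen after arterial occlusion). Few of these genes belong to astrocytes alone: Lcn2 is also made by neutrophils, Srgn by blood cells, Tm4sf1 and Nes by endothelium. In bulk cortex, fewer cells of a type and less RNA per cell cannot be told apart.

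Of the targeted gene itself, the single probe read -0.22, -0.22, -0.18 and -0.11 on arrays 1 to 4 as log2 of knockout-labelled over wild-type signal. Ndrg2 was thus lower on all 4 arrays, by 0.18 ± 0.05 on average (SD, n = 4; limma, adjusted p = 0.0248), at a brightness above that of 97.7% of features. The call was lost in 6 of 14 alternatives, with values from -0.81 (median centring in place of loess) to -0.043 (the deposited processed values, adjusted p = 0.529, limma). Here and below the 14 alternatives are not separate checks. The scanner software's processed signals and the deposited values give the same ratios, and with median centring 53.6% of all features were lower. Where the probe lies relative to the deleted part is not known, so it does not check the genotype, and the samples are called knockout-labelled. Leaving out controls, 73.6 to 74.9% of an array's 43020 spots stood well above background for the knockout-labelled RNA, and 76.7 to 79.0% for the wild-type RNA. Log2 ratios correlated across features at 0.73 between arrays 1 and 2 and 0.63 between arrays 3 and 4, against 0.41 to 0.48 for the other pairs.

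Promoter windows, 250 bases before to 50 after a gene's start, are shown for Gfap, the defining astrocyte filament gene, and for Emp1 and Tgm1, which had the largest spread between knockout-labelled samples. Capitals mark the STAT motif TTCNNNGAA and the AP-1 motif TGAGTCA, read on both strands; the motifs shown do not overlap, and where a gene had several windows the one with the most motifs is shown. The windows are from RefSeq, build GRCm38.p6, written 5′ to 3′ along the gene's strand: Gfap at chr11:102897151-102897450 (minus), Emp1 at chr6:135362681-135362980 (plus) and Tgm1 at chr14:55713443-55713742 (minus).
Gfap: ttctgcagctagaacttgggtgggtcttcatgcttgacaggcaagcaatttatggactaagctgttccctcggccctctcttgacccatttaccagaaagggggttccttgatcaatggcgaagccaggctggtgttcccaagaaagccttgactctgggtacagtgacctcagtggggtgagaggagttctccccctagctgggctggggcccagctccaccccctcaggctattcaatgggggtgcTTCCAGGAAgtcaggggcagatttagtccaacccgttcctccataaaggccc
Emp1: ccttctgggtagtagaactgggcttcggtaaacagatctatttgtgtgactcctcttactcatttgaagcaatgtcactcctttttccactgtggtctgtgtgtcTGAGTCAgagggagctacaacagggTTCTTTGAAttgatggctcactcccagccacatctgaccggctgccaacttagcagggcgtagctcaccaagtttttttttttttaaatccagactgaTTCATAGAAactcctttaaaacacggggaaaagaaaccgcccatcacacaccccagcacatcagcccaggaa
Tgm1: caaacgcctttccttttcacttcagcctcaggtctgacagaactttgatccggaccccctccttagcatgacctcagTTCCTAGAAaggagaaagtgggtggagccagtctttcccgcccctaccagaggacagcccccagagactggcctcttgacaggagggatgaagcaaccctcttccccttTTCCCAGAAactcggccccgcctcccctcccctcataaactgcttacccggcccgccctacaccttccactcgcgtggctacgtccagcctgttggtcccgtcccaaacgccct
In Gfap the STAT motif runs from position -2 to 7 around the annotated start, in Emp1 it lies at -120 to -112 and at -22 to -14 with an AP-1 motif at -145 to -139, and in Tgm1 it lies at -173 to -165 and -64 to -56. Windows were given for 30 members. Of these, 5 (16.7%) held the STAT motif in at least 1 window, namely Gfap, Emp1, Tgm1, Sphk1 and Steap4, against 9.6% of 27025 genes. The AP-1 motif was in windows of 3 of the 30, Emp1, Osgin1 and Sphk1, against 5.9% of genes. By window, 6 of 41 (14.63%) held the STAT motif against 8.30% of 32851. Cd109, Clcf1, Gap43, S100a10, Serping1 and Sox9 had no window in the table. A match of letters is a description and not a site.

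Across the list, 4 of 35 members fell in the knockout-labelled cortex (limma, Benjamini-Hochberg over all features, adjusted p under 0.05), none rose and 31 did not pass. The genes that fell were Cd44, Gap43, Osgin1 and Cp, each by 1.27-fold or less. The share of all features that fell was 12.7%, and 8.63% rose, so the members' count was near the background. None of the 4 passed without replicate 1 or without replicate 2, where 5.99 and 4.96% of features fell. With no replicate block, which treats the channels as separate samples, Gap43 alone passed, and 6.39% of features fell. At an unadjusted p under 0.05 (limma) there were 11 of 35 members, against 9158 of 24565 features. The median log2 ratio of the members was -0.11, against -0.02 for all features, and 27 of the 35 lay below 0. The arrays differed: members had medians of -0.30, -0.29, 0.08 and -0.03 on arrays 1 to 4, and 28, 29, 15 and 20 of them lay below 0, or 80.0, 82.9, 42.9 and 57.1%. Over all features 53.4 to 54.7% lay below 0 on each array.

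**Figure D1:**
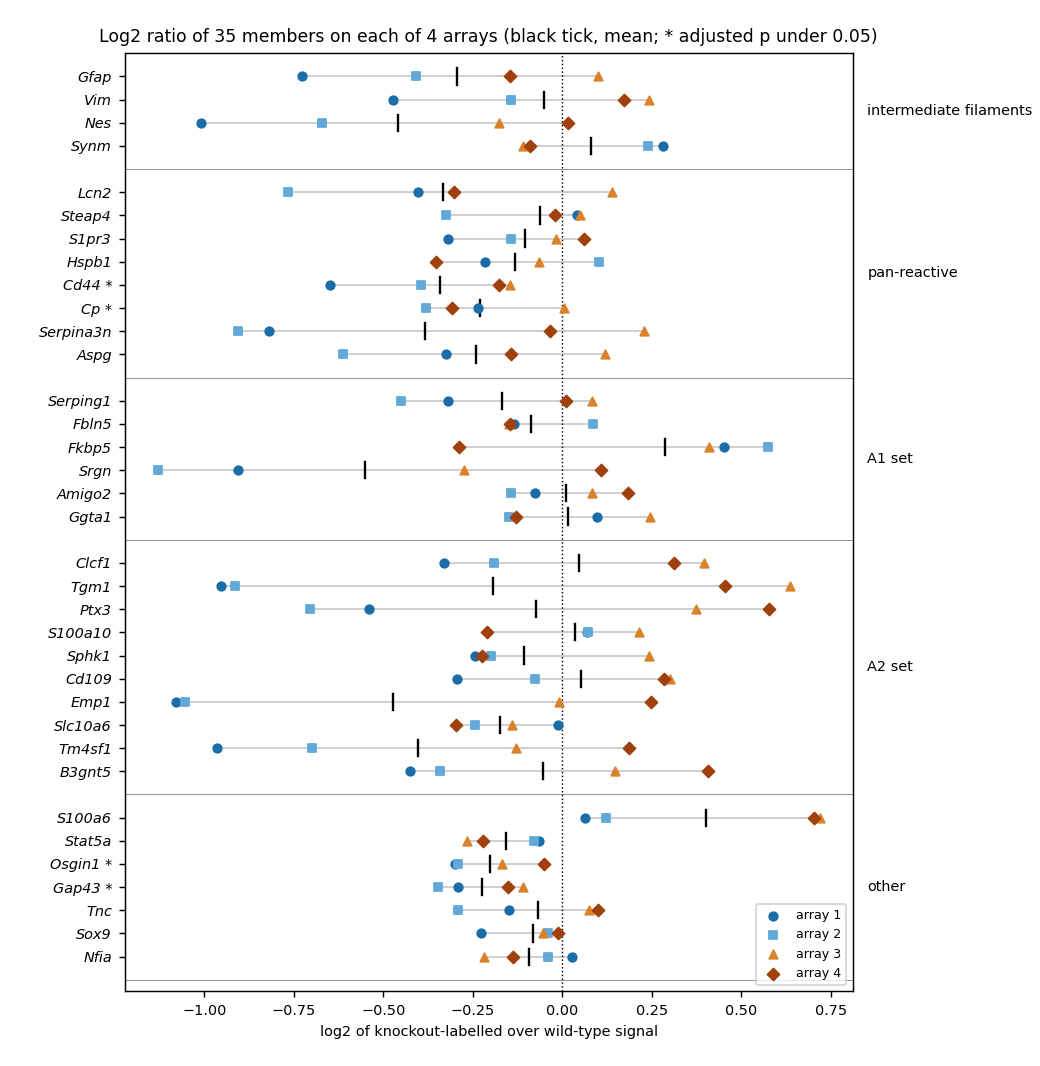
Log2 of knockout-labelled over wild-type signal (x axis) for each of 35 members (rows, by set) on each of 4 arrays (symbols), with the mean as a black tick and an asterisk at an adjusted p under 0.05. Most members sit left of 0 on arrays 1 and 2 and near or right of 0 on arrays 3 and 4, and the median ratio was -0.30, -0.29, 0.08 and -0.03 on arrays 1 to 4.

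Among the 4 intermediate filament genes none passed with its brightest probe (limma; 2 at an unadjusted p under 0.05). Gfap, the main filament protein of astrocytes, read 14.17, 14.22, 14.09 and 14.04 in the wild-type samples and 13.44, 13.81, 14.19 and 13.89 in the knockout-labelled samples of arrays 1 to 4, as log2 normalized intensity. The wild-type samples were alike, the knockout-labelled sample of array 1 was lowest, and that of array 3 lay within the wild-type range, so the groups overlapped. The log2 ratio was -0.30 ± 0.35 (SD, n = 4; limma, adjusted p = 0.120). The other probes of Gfap went the same way by different amounts. The second brightest, assigned by the array design to a different Gfap transcript accession than the other pair, read -0.83, -0.81, -0.26 and -0.59, a mean of -0.62 (1.54-fold), with no overlap between the groups. With every kept probe tested on its own, an alternative chosen after seeing the data, this probe was lower (limma, adjusted p = 0.00704 over 30259 probes, of which 11.7% fell and 9.29% rose). The third probe had a mean of -0.15 (limma, adjusted p = 0.227). The log2 ratio of the second brightest probe lay below that of the brightest on all 4 arrays, by 0.33 ± 0.15 on average, a difference that was not tested. The files do not say which part of the transcript each probe reads.

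Nestin, the filament protein of neural precursors and of reactive glia and vessels, was measured at 11.43, 11.51, 11.49 and 11.56 in the wild-type samples and at 10.42, 10.83, 11.32 and 11.58 in the knockout-labelled samples. Wild-type levels of Nes lay within a narrow range, and the knockout-labelled levels of arrays 1 to 3 lay below it while that of array 4 was just above it. Its log2 ratio was -0.46 ± 0.47 (SD, n = 4; limma, adjusted p = 0.0736). Without replicate 4, where 7.81% of features fell and 5.15% rose, it stood at -0.62 and passed (limma, adjusted p = 0.0351). That left out the only array on which its ratio was above 0. Over 14 alternatives Nes lay between -0.76 and -0.28 and passed in 2. Vim, the filament partner of GFAP in reactive astrocytes, also expressed by endothelium, fibroblasts and immune cells, stood at 14.23, 14.30, 14.43 and 14.37 in the wild-type samples and at 13.76, 14.16, 14.67 and 14.55 in the knockout-labelled samples. These were below the wild-type range on arrays 1 and 2 and above it on arrays 3 and 4, around a mean ratio of -0.05 ± 0.33 (limma, adjusted p = 0.773).

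Synm encodes synemin, a large intermediate filament protein that needs vimentin or desmin to assemble. Its brightest probe read 0.28, 0.24, -0.11 and -0.09, so that arrays 1 and 2 went up and arrays 3 and 4 slightly down, with a mean of 0.08 ± 0.21 (limma, adjusted p = 0.485). The 4 other kept probes of Synm all had means above 0, from 0.11 to 0.28. A pair of these passed when every probe was tested on its own, at 0.25 (limma, adjusted p = 0.00929) and at 0.28 (limma, adjusted p = 0.00573), each above 0 on all 4 arrays and without overlap between the groups. The direction of Synm turned with the scaling: with arrays centred on their median in place of loess the brightest probe stood at -0.21. With the mean of all kept probes of a gene, Gfap was lower at -0.36 (limma, adjusted p = 0.0467) and Synm higher at 0.17 (limma, adjusted p = 0.0277), where 10.9% of features fell and 8.19% rose.

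**Figure D2:**
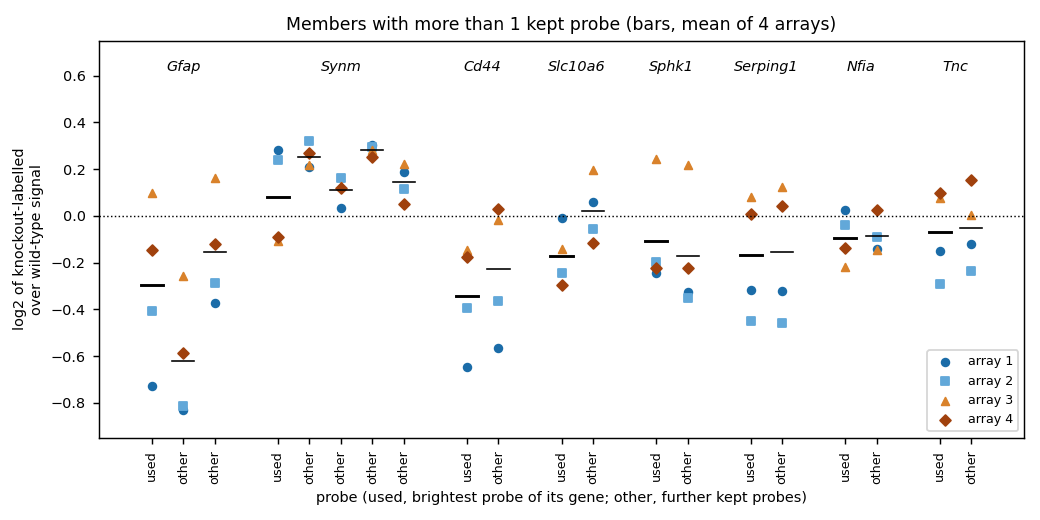
Log2 of knockout-labelled over wild-type signal (y axis) on each of 4 arrays (symbols) for every kept probe of the 8 members with more than 1, with the mean of 4 arrays as a bar, thick for the probe used. The second Gfap probe, at a mean of -0.62, lies below the first at -0.30, and all 5 Synm probes have means above 0.

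Other intermediate filament and linker genes, a list of 12 of which 11 were tested, split: Nefm rose by 0.26 ± 0.04 and Lmnb1, a nuclear lamin, by 0.16 ± 0.04, Ina fell by 0.34 ± 0.06, and 8 did not pass (limma, adjusted p = 0.00878, 0.0344 and 0.00449). With median centring Nefm and Lmnb1 lay below 0, at -0.11 and -0.04. Nefm and Ina encode neuronal filaments, and the list's median was -0.04. By array the list's medians were -0.10, -0.02, 0.07 and 0.07 on arrays 1 to 4. Among all features 12.7% fell and 8.63% rose.

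Among the genes listed here as pan-reactive all 8 had means below 0, and Cd44 and Cp fell. Gfap, Vim, Timp1, Cxcl10 and Osmr were placed in other lists, and of these Osmr alone had a mean above 0, at 0.05. Cd44, the hyaluronan receptor, stood at 10.27, 10.53, 10.57 and 10.57 in the wild-type samples and at 9.62, 10.13, 10.43 and 10.39 in the knockout-labelled samples. Each knockout-labelled sample lay below the wild-type sample of its own array, though the groups overlapped. Cd44 fell by 0.34 ± 0.23, or 1.27-fold (limma, adjusted p = 0.0298), and its second kept probe had a mean of -0.23 (limma, adjusted p = 0.138 when tested on its own). Cp, the ferroxidase ceruloplasmin, read 10.45, 10.66, 10.77 and 10.72 in the wild-type samples and 10.21, 10.28, 10.78 and 10.41 in the knockout-labelled samples. It was lower on 3 arrays and level on array 3, and fell by 0.23 ± 0.17 on average (limma, adjusted p = 0.0477). Both calls depended on the processing: Cd44 failed the threshold in 7 and Cp in 10 of 14 alternatives, with Cd44 between -0.60 and -0.24 and Cp between -0.50 and -0.18.

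Serpina3n, a secreted serine protease inhibitor and a frequent marker of reactive astrocytes, gave 12.44, 12.51, 12.54 and 12.43 in the wild-type samples. In the knockout-labelled samples it gave 11.62, 11.60, 12.77 and 12.40. The knockout-labelled samples of arrays 1 and 2 lay well below every wild-type sample, that of array 3 above them and that of array 4 just below, giving a log2 ratio of -0.38 ± 0.57 that did not pass (limma, adjusted p = 0.178). Lcn2, the siderophore-binding lipocalin, had log2 ratios of -0.40, -0.77, 0.14 and -0.30. Its mean of -0.33 ± 0.37 did not pass (limma, adjusted p = 0.0991) but did without replicate 3, at -0.49 (limma, adjusted p = 0.0312), where 6.58% of features fell. That left out the only array with a ratio above 0. Over 14 alternatives Lcn2 lay between -0.64 and -0.19 and passed in 2. Aspg, an asparaginase, showed the same order of arrays with a mean of -0.24, while the small heat shock protein gene Hspb1 at -0.13, the sphingosine 1-phosphate receptor gene S1pr3 at -0.10 and the metalloreductase gene Steap4 at -0.06 did not pass. Median centring, under which 53.6% of features were lower and 25.8% higher, turned Steap4 to 0.34.

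**Figure D3:**
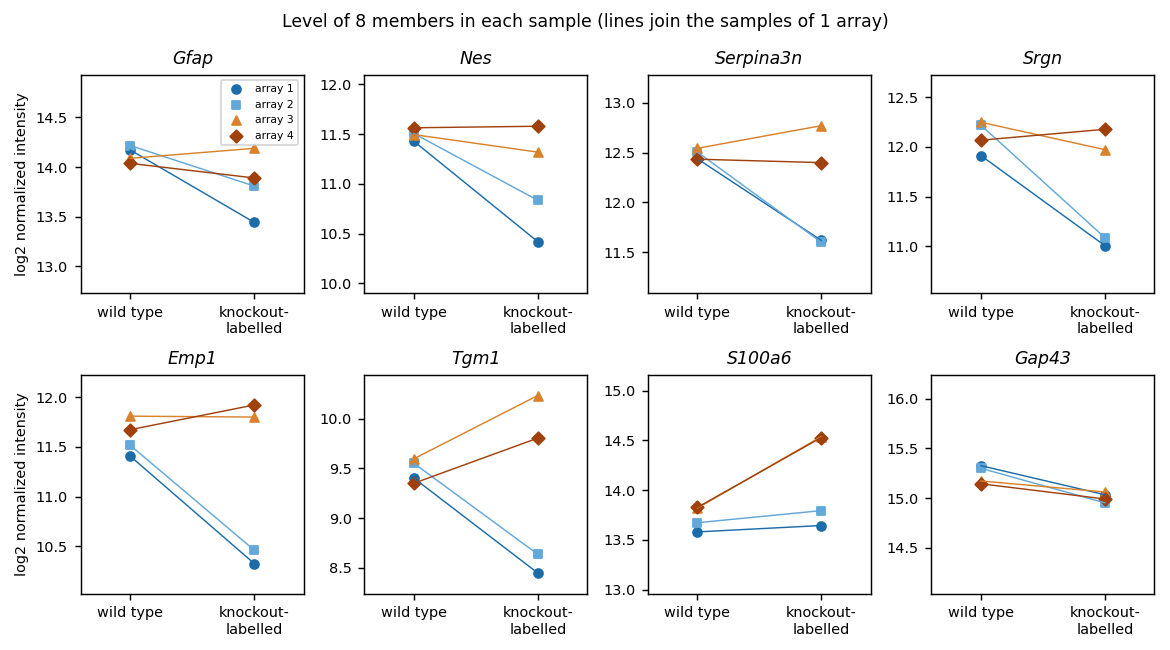
Log2 normalized intensity (y axis) of 8 members in the wild-type and the knockout-labelled sample of each array, joined by a line, with 1 symbol per array and the same span in every panel. For Serpina3n the wild-type samples lie between 12.43 and 12.54 and the knockout-labelled samples between 11.60 and 12.77, whereas all knockout-labelled levels of Gap43 lie below all wild-type levels.

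None of the 6 tested genes of the A1 set passed (limma; 1 at an unadjusted p under 0.05). Srgn, which encodes the granule proteoglycan serglycin, had the lowest mean of all members: it read 11.91, 12.22, 12.25 and 12.07 in the wild-type samples and 11.01, 11.09, 11.97 and 12.18 in the knockout-labelled samples. The knockout-labelled samples of arrays 1 and 2 were low, and those of arrays 3 and 4 reached the wild-type range. The log2 ratio was -0.55 ± 0.57 (limma, adjusted p = 0.0756) and passed without replicate 4, at -0.77 (limma, adjusted p = 0.0243). Array 4 was the only array on which its ratio was above 0. Over 14 alternatives Srgn lay between -0.87 and -0.36 and passed in 2. Fkbp5, a glucocorticoid-induced co-chaperone gene, went the other way, at 0.45, 0.57, 0.41 and -0.29. It was higher on 3 arrays and lower on array 4, with a mean of 0.29 ± 0.39 (limma, adjusted p = 0.157). Without replicate 4 Fkbp5 stood at 0.48 and passed (limma, adjusted p = 0.00819), the only pass in 14 alternatives. With median centring it stood at -0.03. The complement C1 inhibitor gene Serping1 had a mean of -0.17 with -0.15 for its other probe, and Fbln5, Amigo2 and Ggta1 stood at -0.09, 0.01 and 0.02. With median centring Fbln5 was lower at -0.31 (limma, adjusted p = 0.00126) and Ggta1 higher at 0.57 (limma, adjusted p = 0.000159). Under that setting 53.6% of all features were lower and 25.8% higher.

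The A2 set held the member with the largest spread between arrays, Tgm1. None of its 10 members passed (limma; 1 at an unadjusted p under 0.05), and the median ratio of the set was -0.38, -0.29, 0.23 and 0.27 on arrays 1 to 4. Emp1, a tetraspan membrane protein gene, measured 11.40, 11.51, 11.81 and 11.67 in the wild-type samples and 10.33, 10.46, 11.80 and 11.92 in the knockout-labelled samples. On arrays 1 and 2 its knockout-labelled level was thus far below every wild-type level, and on arrays 3 and 4 it reached the top of the wild-type range or passed it (mean -0.47 ± 0.69; limma, adjusted p = 0.173). Tgm1, a cross-linking transglutaminase gene that like Ndrg2 lies on chromosome 14, went from 8.45 and 8.64 in the knockout-labelled samples of arrays 1 and 2 to 10.23 and 9.81 in those of arrays 3 and 4. Its wild-type samples stayed between 9.35 and 9.60, so that the knockout-labelled samples lay on both sides of them (mean ratio -0.19 ± 0.86; limma, adjusted p = 0.645).

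Tm4sf1, a membrane protein gene also strong in endothelium, had log2 ratios of -0.96, -0.70, -0.13 and 0.18. The mean of -0.40 ± 0.52 did not pass (limma, adjusted p = 0.136), but without replicate 4 it did, at -0.60 (limma, adjusted p = 0.0392). That left out the only array with a ratio above 0. Over 14 alternatives Tm4sf1 lay between -0.89 and -0.21 and passed in 2. Ptx3, the long pentraxin, read -0.54, -0.70, 0.37 and 0.58, and Clcf1, a gp130 cytokine of the family that signals through Cntfr, read -0.33, -0.19, 0.40 and 0.31. Both went down on arrays 1 and 2 and up on arrays 3 and 4, as did Cd109 and B3gnt5, with means from -0.07 to 0.05. Slc10a6, a transporter gene for sulfated steroids, was the only member with more than 1 kept probe whose probes disagreed in sign: the used probe read -0.01, -0.25, -0.14 and -0.30 (mean -0.17 ± 0.13; limma, adjusted p = 0.0662) and the other had a mean of 0.02. Sphk1, sphingosine kinase, and S100a10, an annexin partner, had means of -0.11 and 0.04, and S100a10 turned to -0.30 with median centring.

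Of the remaining members Gap43 and Osgin1 fell. Gap43, the growth cone protein gene, which neurons express most and reactive astrocytes also use, was at 15.33, 15.30, 15.17 and 15.14 in the wild-type samples and at 15.03, 14.95, 15.06 and 14.99 in the knockout-labelled samples. By the brightest probe of each gene, Gap43 was the only member whose groups did not overlap. Over all features the groups did not overlap, with knockout-labelled lower, in 10.6%, and with it higher, in 9.04%. Gap43 fell by 0.23 ± 0.11, or 1.17-fold (limma, adjusted p = 0.0259), and kept its call in 9 of 14 alternatives, median centring among them. It is brighter than 96.2% of features, and features of like brightness (the 95th to 98th percentile) had a median of 0.02. Osgin1, an oxidative stress-induced growth inhibitor gene, read 8.84, 8.92, 9.09 and 8.97 in the wild-type samples and 8.54, 8.62, 8.92 and 8.92 in the knockout-labelled samples. Each knockout-labelled sample lay below the wild-type sample of its array, as in 25.1% of features, though the groups overlapped. Osgin1 fell by 0.20 ± 0.12 on average (limma, adjusted p = 0.0377), a call that 7 of 14 alternatives kept, median centring among them.

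S100a6, the calcium-binding protein calcyclin, had the highest mean. Its levels were 13.58, 13.67, 13.82 and 13.83 in the wild-type samples and 13.64, 13.79, 14.54 and 14.53 in the knockout-labelled samples. It was about level on arrays 1 and 2 and clearly higher on arrays 3 and 4, with a mean ratio of 0.40 ± 0.36 that did not pass (limma, adjusted p = 0.0540) and that turned to -0.05 with median centring. Stat5a, a transcription factor of the JAK-STAT pathway, was below 0 on all 4 arrays at a mean of -0.16 ± 0.10 (limma, adjusted p = 0.0634). Of the transcription factors that specify astrocytes, Sox9 stood at -0.08 and Nfia at -0.09, and neither passed. The matrix glycoprotein gene Tnc stood at -0.07 and did not pass, but its value depended on the processing. It was -0.86 with the scanner software's processed signals (limma, adjusted p = 0.219). With median centring, where 25.8% of features were higher, Tnc was called higher at 0.33 (limma, adjusted p = 0.00206).

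Much of the members' difference between arrays lay in the knockout-labelled samples. The median SD of a member's log2 level was 0.31 over the 4 knockout-labelled samples and 0.12 over the 4 wild-type samples, against 0.09 and 0.08 for all features. In 28 of 35 members (80.0%) the knockout-labelled spread was the larger, against 62.2% of features. By SD of the log2 ratio, 20 of the 35 were among the 10% of features with the widest spread (2457 of 24565). The knockout-labelled samples of arrays 1 and 2 were the lowest of their group in 24 members (68.6%) against 20.6% of features, and the wild-type samples of the same arrays in 16 (45.7%) against 17.6%. This order was described after the values were seen and was not tested.

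**Figure D4:**
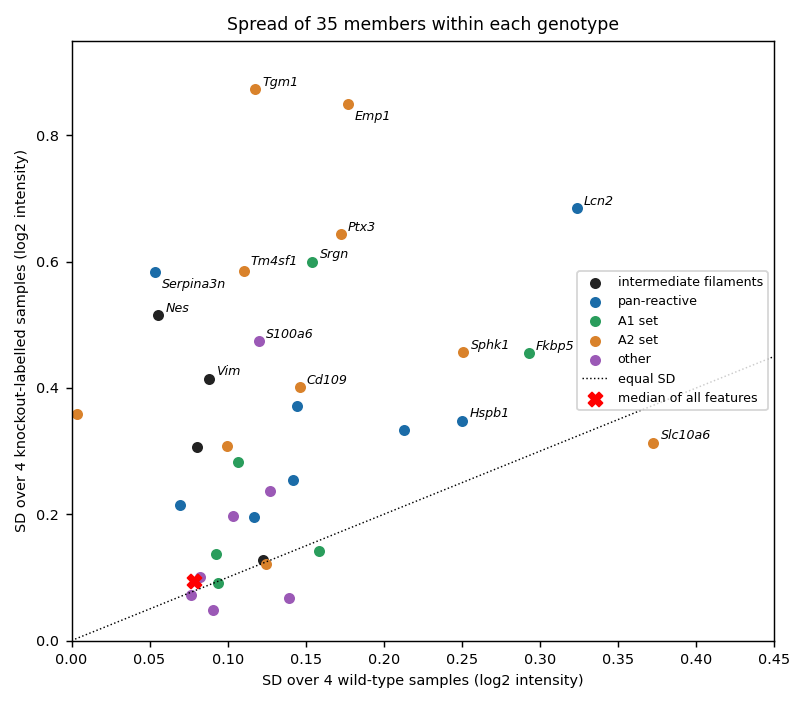
SD of the log2 normalized intensity over the 4 knockout-labelled samples (y axis) against that over the 4 wild-type samples (x axis) for 35 members, coloured by set, with equal SDs as a dotted line and the median of all features as a red cross. Above the line lie 28 members, and Tgm1 and Emp1 lie highest, with knockout-labelled SDs of 0.87 and 0.85.

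Markers of the cell types in the sample moved with the arrays in different ways. Astrocyte markers had medians of -0.09, -0.14, -0.08 and -0.26 on arrays 1 to 4 and microglia markers of -0.17, -0.14, -0.10 and -0.21, with no gap between arrays 1 and 2 and the others. Neuron markers (0.02, -0.08, -0.01 and -0.11) and lymphocyte markers (-0.04, -0.12, -0.20 and 0.02) had no such gap either. Endothelial markers (-0.23, -0.20, -0.05 and -0.03), pericyte and fibroblast markers (-0.25, -0.30, -0.10 and -0.14), erythrocyte genes (-0.33, -0.64, -0.09 and 0.19), neutrophil markers (-0.22, -0.30, -0.12 and 0.04), monocyte and macrophage markers (-0.26, -0.25, -0.17 and -0.10) and oligodendrocyte markers (-0.09, -0.26, 0.25 and 0.37) were lower on arrays 1 and 2, as the members were. S100a8 of the neutrophil list read -1.28, -1.18, -0.30 and 0.04, and Cd14 of the monocyte and macrophage list -1.104, -1.57, -0.18 and 0.30; both were singled out after their values were seen and neither passed (limma, adjusted p = 0.0597 and 0.139). Not every gene of these lists had this order. In the same lists Mpo read 0.07, 0.15, -0.10 and -0.28, and Mrc1 -0.11, 0.39, -0.30 and -0.38. Ms4a4c, which passed, read -0.39, -0.56, -0.57 and -0.43. The part of these markers in the members' values was not tested.

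Beside the 12.7% of all features that fell, of 12 astrocyte markers 4 fell, among them Aldoc by 0.39, Slc1a2 by 0.30 and Aqp4 by 0.41, and of 9 tested microglia markers 5 fell, among them Ctss by 0.45, Cx3cr1 by 0.29 and Olfml3 by 0.25. Of neutrophil markers 2 of 9 fell (Elane and Csf3r), of monocyte and macrophage markers 3 of 10 (Ms4a4c, Adgre1 and Itgam), of endothelial markers 2 of 10 (Ly6a and Vwf), of pericyte and fibroblast markers 2 of 9 (Dcn and Lum), of neuron markers 1 of 9 (Gad2), of lymphocyte markers 1 of 5 (Nkg7) and of erythrocyte markers 0 of 4 (limma, adjusted p of those named from 0.00233 to 0.0437; unadjusted p under 0.05 in 1 erythrocyte marker). Of 8 oligodendrocyte markers Mbp and Olig2 rose (limma, adjusted p = 0.0450 and 0.0347), both turning below 0 with median centring, and the other kept Mbp probes had means of -0.11 and 0.11. Other kept probes of the named markers that fell also had means below 0. These were -0.09 for Adgre1, -0.18 and -0.03 for Itgam, -0.09 for Cx3cr1, and -0.46 and -0.08 for Slc1a2. They were -0.31 for Aqp4, -0.42 for Olfml3, and -0.33 and -0.19 for Ms4a4c. The other Ms4a4c probes were far dimmer than the used one (6.95 and 6.88 against 14.61) and lay above 0 on arrays 3 and 4. With the scanner software's processed signals, where 7.09% of features fell, 2 astrocyte markers (Slc1a2 and Aqp4), 2 microglia markers (Ctss and Cx3cr1) and 3 monocyte and macrophage markers were lower, and none of the neutrophil, endothelial, pericyte and fibroblast, lymphocyte or neuron markers, while neither Mbp nor Olig2 passed. Aldoc then stood at -0.20 (limma, adjusted p = 0.0745) and Csf3r at -0.069 (limma, adjusted p = 0.390). The summed linear intensity of the astrocyte markers was 239565 to 269317 in the knockout-labelled and 295731 to 310001 in the wild-type samples, and that of the microglia markers 75253 to 83752 and 90521 to 94630. Those sums are dominated by bright probes, and features at the 98th to 100th percentile of brightness had a median log2 ratio of -0.14. In that band 44.1% of features fell, against 12.7% of all features. Aldoc was the brightest astrocyte marker, at a mean log2 intensity of 16.80. Summed neutrophil markers ranged from 45509 to 54210 against 57699 to 66490, and monocyte and macrophage markers from 53117 to 57970 against 64915 to 75741. Bright probes dominate these sums too. Csf3r had a mean log2 intensity of 15.56, and the next brightest neutrophil marker, S100a9, one of 11.91. Itgam and Ms4a4c stood at 14.94 and 14.61, and the next brightest monocyte and macrophage marker, Cd14, at 11.58. Summed endothelial markers ranged from 25951 to 35176 against 30232 to 33782, and pericyte and fibroblast markers from 15082 to 22802 against 20515 to 24605. For neurons the sums were 246807 to 277878 against 259453 to 266740, for oligodendrocytes 140473 to 204972 against 164030 to 175168, for erythrocytes 35720 to 58027 against 43779 to 55030, and for lymphocytes 1525 to 2334 against 1766 to 2382. Ngp, Cd3g and Klrb1c were not well above background on any array, and Cd68 had no probe under the accession rule.

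**Figure D5:**
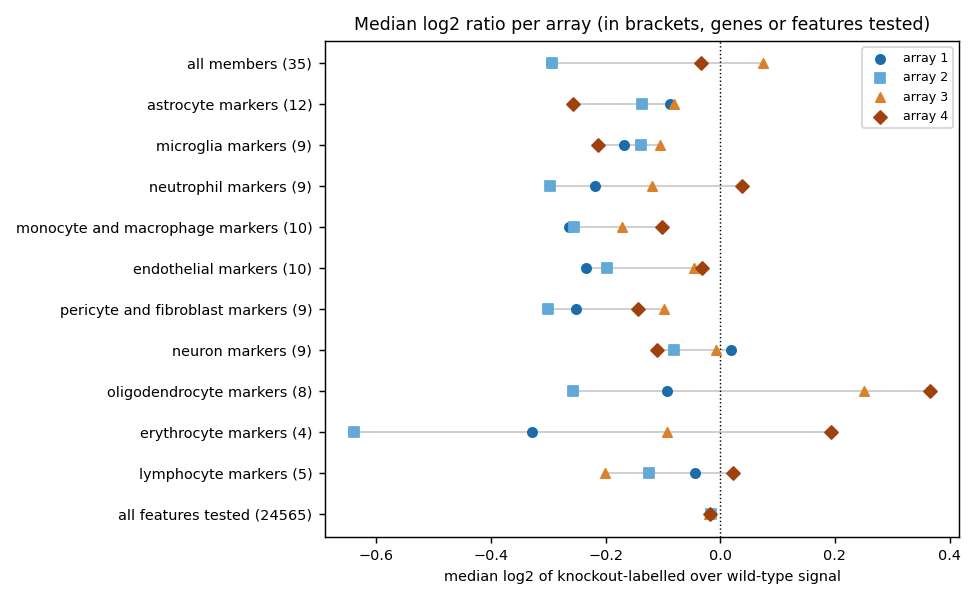
Median log2 of knockout-labelled over wild-type signal (x axis) on each of 4 arrays (symbols) for the 35 members, for 10 lists of cell type markers and for all features tested, with the number tested in brackets. Members range from -0.30 to 0.08 and astrocyte markers from -0.26 to -0.08, while all features stay near -0.02.

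Genes around the members were read from fixed lists. Of 18 genes of STAT3 and gp130 signalling, the pathway that drives Gfap, 3 fell, 1 rose and 14 did not pass, with a median of -0.12. The list's medians on arrays 1 to 4 were -0.25, -0.17, -0.06 and 0.09, lower on arrays 1 and 2 as for the members. Among all features 12.7% fell and 8.63% rose, with a median of -0.02. Cntfr, the receptor subunit for ciliary neurotrophic factor and for the Clcf1 product with its partner, rose by 0.96 ± 0.34 (limma, adjusted p = 0.00381), while Il6ra fell by 0.34 ± 0.11 and Cebpb by 0.22 ± 0.08 (limma, adjusted p = 0.00864 and 0.0187). Stat3 itself stood at -0.12 and did not pass (limma, adjusted p = 0.242), and neither did the feedback inhibitor gene Socs3 at -0.20 (limma, adjusted p = 0.387). Both were singled out after their values were seen.

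Of 13 further reactive set genes 4 fell, none rose and the median was -0.29. Their medians on arrays 1 to 4 were -0.40, -0.61, -0.11 and -0.08, again lower on arrays 1 and 2, an order that was not tested. Over all features 12.7% fell, 8.63% rose and the median was -0.02. Lgals1, a galectin gene, fell by 0.54 ± 0.34, the guanylate-binding protein gene Gbp2 by 0.85 ± 0.70 and the immunoproteasome gene Psmb8 by 0.35 ± 0.27 (limma, adjusted p = 0.0192, 0.0375 and 0.0387). Gbp2 read -0.74, -1.87, -0.45 and -0.35 on arrays 1 to 4, all below 0. With the scanner software's processed signals none of the 13 passed, at a median of -0.30; Lgals1 stood at -0.53, Gbp2 at -0.88 and Psmb8 at -0.33 (limma, adjusted p = 0.0622, 0.0917 and 0.111). Of the 5 genes whose products from microglia induce the A1 set, C1qc fell by 0.22 ± 0.06 (limma, adjusted p = 0.0166), and Il1a, Tnf, C1qa and C1qb did not pass. The medians of these 5 were -0.25, -0.17, 0.12 and 0.16 on arrays 1 to 4.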

How the data were processed

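Total RNA of ipsilateral cortex was compared on 4 2-colour Agilent arrays; 200 ng per sample was labelled, per the labels' protocols. Groups, dyes and replicate numbers came from the labels, and the number pairs the samples by putting them on 1 array. Spot and background intensities are linear scanner values, per the file headers (Agilent Feature Extraction 11.0.1.1; the submitters' processing notes name 10.7.3.1). The deposited log10 ratio is processed Cy5 over Cy3. The deposited series matrix values are log2 and equalled log2 of processed Cy5 over Cy3 within 0.001 for all 39030 single-spot probes, so they are wild type over knockout and their sign was turned; column medians were -0.05, -0.06, -0.04 and -0.03, with no further centring found. Deposited spot flags are other values of 0 or 1, per the file headers.

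Median signals were corrected with normexp (offset 50) and loess-normalized within each array in limma 3.58.1 (R 4.3.3); control spots and 139 to 186 outlier spots per array were left out, and a probe with an outlier on 1 array was fitted on the others. No member's spot was left out. Spots of 1 probe were averaged, and 30259 of 39429 probes were kept. Names came from a RefSeq table of GRCm38.p6, which gave a symbol to 69.6% of probes; the arrays are annotated on another build, so no probe coordinates are given. Log2 ratios over the 4 arrays were tested against 0 (lmFit, then eBayes), with Benjamini-Hochberg adjustment over 24565 features and a threshold of 0.05. Levels per sample were taken after loess and Aquantile, which sets the arrays' mean intensities to 1 distribution. All arrays lay on 1 slide. The number of arrays limits the precision.

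Values on every array were to be given for the filament genes, members that passed, the 6 that did not pass with the largest absolute mean (Nes, a filament gene, among them), and members whose probes disagreed; up to 3 genes that passed were named per related or marker list. Lcn2, Fkbp5, Tgm1, Ptx3, Clcf1 and Gbp2, whose values on every array are also given, were chosen after their values were seen. The same holds for S100a8, Cd14, Mpo, Mrc1, Ms4a4c, Il11, Il6 and Osmr. Members, lists and tests were chosen with earlier results of these data known. Spike-in log ratios had observed over expected slopes of 0.728 to 0.739, so ratios were compressed.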

Additional observations from a re-analysis of the deposited data

Results flagged for a closer look

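A single array lay far from the rest in 2 of the 35 members, by Dixon's test for groups of 4, which chance passes in about 1 of 20 groups, or 1.75 here. In Fbln5, an extracellular matrix protein gene, it was array 2, at 0.09 while the other arrays averaged -0.14, and the gap made up 0.950 of the whole range. In Sphk1 it was array 3, at 0.24 while the other arrays averaged -0.22, and the gap made up 0.907 of the whole range. The second Sphk1 probe, at 0.22 on array 3, was also above 0 on that array alone.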

How the results depend on the processing

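The count of members that fell (limma) was 4 and of those that rose 0, with 11 at an unadjusted p under 0.05, against 9158 of 24565 features. It was 0 and 0 with normexp at offset 0, with the scanner software's processed signals and with the deposited series matrix values, where 7.70, 7.09 and 7.09% of features fell. With no replicate block, which treats the channels as separate samples, 1 member, Gap43, was lower. With median centring in place of loess 24 members were lower and 4 higher, but 53.6% of features were lower, and the median of all features moved from -0.02 to -0.18 while that of the members was -0.36; the share of higher among all calls was then 6329 of 19506, against 2120 of 5229. With the mean of all kept probes 3 members were lower and 1 (Synm) higher, with Gap43 and Osgin1 kept, Cd44 and Cp lost (adjusted p = 0.0704 and 0.0513) and Gfap gained; with every kept probe tested on its own, Synm was higher too. Leaving out each replicate gave 0 to 6 lower members and 0 to 1 higher: none were lower without replicate 1 or without replicate 2, 5 without replicate 3 and 6 without replicate 4. Over all features the lower count fell from 3109 to 1891 with offset 0, 1742 with scanner values, 1570 with no replicate block (1268 higher) and 1219 to 1918 with replicates left out (808 to 1264 higher), and rose to 13177 with median centring.

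Directions turned with median centring for Synm (-0.21), Steap4 (0.34), Fkbp5 (-0.034), Amigo2 (-0.0068), S100a10 (-0.30), S100a6 (-0.054) and Tnc (0.33). With each replicate left out in turn, values spanned 0 for Vim (-0.15 to 0.090), Steap4 (-0.10 to 0.023), Amigo2 (-0.046 to 0.063), Ggta1 (-0.061 to 0.071), Clcf1 (-0.070 to 0.17), Tgm1 (-0.47 to 0.059), Ptx3 (-0.29 to 0.14), S100a10 (-0.024 to 0.12), Cd109 (-0.029 to 0.17), B3gnt5 (-0.21 to 0.071) and Tnc (-0.12 to 0.0078). The cause was not tested. Ggta1 and Tnc were well above background in 3 of 4 knockout-labelled samples, which limits their values, and were not tested when all 4 arrays in both channels were asked for.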
